A study of Homo sapiens with 18 samples.

Results

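Heavy polysome mRNA was compared with monosome mRNA in vehicle-treated HEK293 cells, an established human embryonic kidney line. The comparison used the 3 heavy polysome libraries against the 3 monosome libraries. Genes entered when the table gave a gene symbol and the mean normalized count over the 9 vehicle libraries was at least 20. This kept 12059 of 13661 genes. Another 233 rows had no symbol and 1369 named genes fell below the minimum. Both groups were the same line, ATCC CRL-1573, given DMSO for 12 h. Cytoplasmic lysate from each of 3 biological replicates was separated on a sucrose gradient, and the monosome, light polysome and heavy polysome pools were each sequenced. By its title the study is about how minocycline, a tetracycline antibiotic, remodels ribosome load. Minocycline libraries were not analysed here, and light polysome libraries were used only in the filter and in 1 alternative fit.

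An mRNA in the monosome pool carries a single ribosome, whereas several ribosomes translate an mRNA of the heavy polysome pool at once. Where an mRNA sits depends on how often ribosomes start on it, how fast they move, and how much coding sequence there is to hold them. Short coding sequences have room for few ribosomes. mRNAs with a pyrimidine tract at the cap (TOP mRNAs) move into polysomes when growth signalling is active and out of them when it is inhibited. Inhibitory upstream reading frames keep ribosomes off the main reading frame of some other mRNAs. Below, "higher" and "lower" mean higher and lower in heavy polysomes than in monosomes. Differences are log2(normalized count + 1) in heavy polysomes minus the same in monosomes, with the standard error (SE) of the fit. A gene was called at a Benjamini-Hochberg adjusted p of 0.05 in limma's moderated test over all 12059 genes.

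Library depth ranged from 13447139 reads (monosome replicate 2) to 24441159 reads (heavy polysome replicate 2). Monosome replicate 2 stood apart. It held 3.87% reads of mitochondrially encoded mRNAs where the other monosome libraries held 26.0% and 19.5%. Ribosomal protein mRNAs took 53.0% of its reads, against 38.1% and 33.6%. Heavy polysome replicate 2 differed too, with r of 0.942 and 0.947 to heavy replicates 1 and 3, against 0.977 between those. Its mitochondrially encoded reads were 0.10%, against 0.28% and 0.29%. All 10 markers of the HEK293 line were in the table, 9 of them at a mean of at least 100. Of 16 markers of blood, fibroblasts, endothelium, liver and adult kidney, 4 were in the table and 0 reached 100. Each library pools many cells, so a change in all cells and a change in some of them cannot be told apart.

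The test called 54.2% of the 12059 genes: 3391 higher (28.1%) and 3151 lower (26.1%). These shares are the background for the counts of members below. All 3 heavy polysome values lay above all 3 monosome values in 32.3% of genes and below them in 29.2%. The median difference of all genes was 0.14. The deposited values set the typical gene of each library to the same level. When each library was scaled to the same total instead, the median moved by 1.27 to 1.41, and 7598 genes were higher (63.0%) and 1170 lower (9.7%). Differences are therefore relative to the typical gene, and a group median between -1.27 and 0 has the opposite sign on equal totals. Among called genes, on the lower side 541 genes were past 8-fold, against 44 on the higher side. Without both libraries of replicate 1 the calls were 1896 higher (15.7%) and 2251 lower (18.7%), and without both libraries of replicate 2 they were 3728 (30.9%) and 3479 (28.8%). Without only the monosome library of replicate 2 they were 3398 (28.2%) and 3223 (26.7%). With the replicate number as a block they were 2950 (24.5%) and 2883 (23.9%).

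The highest differences among well-measured genes, ribosomal protein and mitochondrially encoded genes left out, belonged to chromatin, RNA and membrane proteins. HMGN5, a nucleosome-binding protein, had normalized counts of 895, 329 and 286 in the monosome libraries of replicates 1, 2 and 3. In heavy polysomes it had 15147, 3454 and 8676. All heavy polysome values lay above all monosome values, a difference of 4.13 (SE 0.52, limma adjusted p = 2.24e-05). RTF1, a subunit of the PAF1 transcription elongation complex, followed at 3.76. CD81, a tetraspanin of the cell surface, differed by 3.67 and ANP32A, an acidic histone chaperone, by 3.66. HMGB2, a DNA-bending protein, differed by 3.63. NUDC, a dynein cochaperone, differed by 3.44, and HNRNPAB, an RNA-binding protein, by 3.41. CPE, a peptide-processing carboxypeptidase, differed by 3.40 and PCNA, the sliding clamp of DNA replication, by 3.35. UPF3B of nonsense-mediated decay and CHMP2B of the membrane-cutting ESCRT machinery both differed by 3.33, and the RNA-binding protein RBM42 by 3.30. Their coding sequences run from 627 nt (HMGB2) to 2130 nt (RTF1). NUDC, HNRNPAB and CD81 overlap an opposite-strand gene in the annotation, and no source used here says whether counting used strand.

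The lowest differences fell mostly on mRNAs of very small proteins. SELENOW, a selenoprotein of 261 coding nt, had 15117, 5679 and 17169 normalized counts in the monosome libraries and 111, 63.2 and 139.6 in heavy polysomes. Its difference of -6.82 (SE 0.43, limma adjusted p = 2.85e-07) amounts to 113-fold. SMIM27, a small membrane protein, stood at -6.61 and COMMD6, a COMM-domain protein, at -6.34. LSM10, an Sm-like protein of the histone pre-mRNA processing particle, stood at -6.01 and COPS9, the smallest COP9 signalosome subunit, at -5.62. The small membrane protein TMEM167A was at -5.36, the oligosaccharyltransferase subunit OST4 at -5.18 and the ATP synthase-associated ATP5MK at -5.17. In these 8 genes the coding length was 111 to 369 nt. SMIM27, OST4 and ATP5MK overlap exons of opposite-strand coding genes (TOPORS and NDUFB6, AGBL5, and TAF5), so their reads cannot be told apart without strand.

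The other 4 of the 12 lowest genes have longer reading frames. MAP3K13, a stress kinase of 2898 coding nt, had 7320, 4222 and 9483 in monosomes and 151, 138 and 211 in heavy polysomes, a difference of -5.33 (SE 0.35). CCNB1IP1, a ubiquitin ligase of 831 coding nt, differed by -5.30. ITGAE, an integrin chain of 3537 coding nt, differed by -5.19, and CDADC1, a cytidine deaminase-like protein of 1542 coding nt, by -5.12. All 3 heavy polysome values of each gene lay below all 3 monosome values. MAP3K13 overlaps exons of TMEM41A on the opposite strand and ITGAE overlaps HASPIN. CDADC1 and CCNB1IP1 overlap no other annotated gene.

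**Figure D1:**
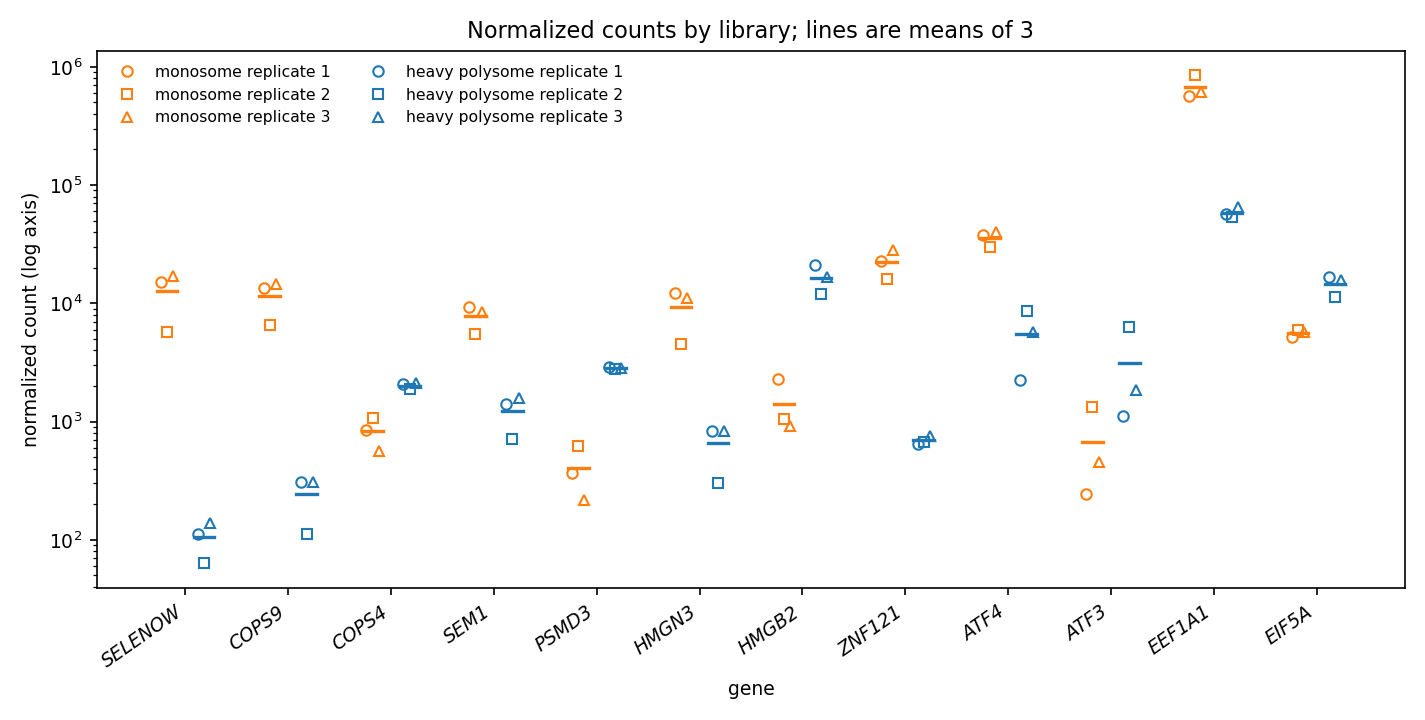
Normalized count (log axis) of 12 genes in each monosome (orange) and heavy polysome (blue) library, with symbols for the replicate and lines for the mean of 3. SELENOW, COPS9, SEM1, HMGN3, ZNF121, ATF4 and EEF1A1 are lower in heavy polysomes and COPS4, PSMD3, HMGB2, ATF3 and EIF5A higher; the ATF3 groups overlap between replicates.

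Coding length tracked the difference over all genes. The 250 genes with up to 300 coding nt had a median of -2.73, with 91.6% lower and 0.80% higher. The median was -1.08 for 1278 genes above that and up to 600 nt, and 0.08 for 3436 genes above 600 and up to 1200 nt. It was 0.28, 0.41 and 0.68 in the next 3 bins, up to the 545 genes over 4800 nt, of which 39.6% were higher. Above 600 nt the medians climbed steadily in replicate 2 only, from -0.32 through 0.35 and 0.99 to 1.26. The same bins had 0.21, 0.30, 0.15 and 0.24 in replicate 1, and 0.31, 0.13, -0.04 and 0.58 in replicate 3. Without replicate 2, 177 of the 545 genes over 4800 nt were higher, against 1308 of the 3436 above 600 and up to 1200 nt. Lower were 48 and 939. Across 12054 genes the Pearson correlation with log2 coding length was 0.32 and Spearman's rho 0.26, a description across genes that share the same 6 libraries. Among the genes over 4800 nt 4.77% were lower. The sign of a bin median between -1.27 and 0 holds for the deposited scaling only.

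**Figure D2:**
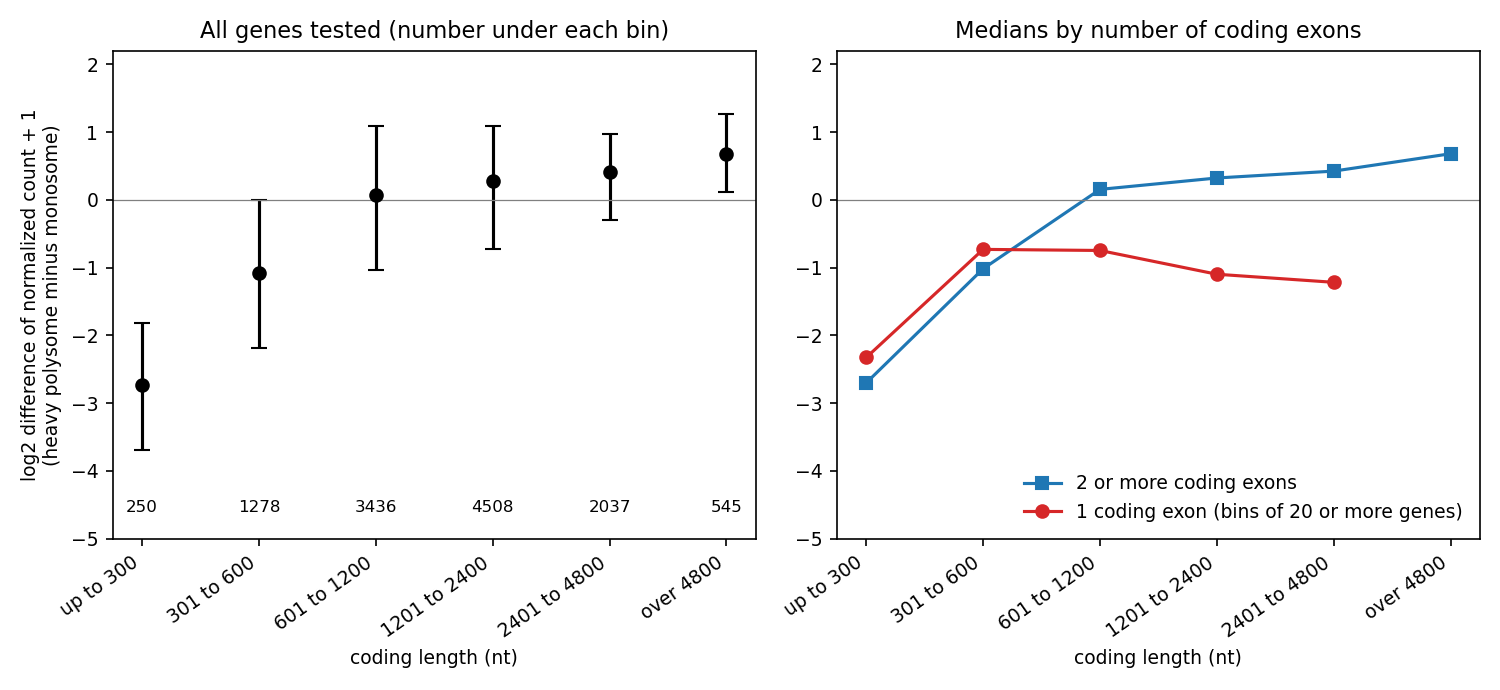
Left, median log2 difference (points) and quartiles (bars) of all genes tested by coding length in nt, with the number of genes under each bin. Right, the medians of genes with 1 coding exon (red) and with 2 or more (blue) in the same bins, ribosomal protein and mitochondrially encoded genes left out. The median climbs from -2.73 to 0.68 on the left, but above 600 nt it climbs steadily in replicate 2 only. On the right the highest point of the red line is -0.73 in the bins drawn. The last bin, with 1 such gene at 0.19, is left out of the red line. The blue line passes 0 above 600 nt.

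The same order held inside most gene groups, protein families as well as complexes. Of all genes tested, 913 of 1528 of up to 600 coding nt were lower (median -1.34). Of the longer ones 3263 of 10526 were higher (median 0.29). These shares are the background for the split counts below. In 35 groups with at least 3 measured members on each side of 600 coding nt, the short members had the lower median in 32 and the higher median in 3 (COPI and COPII coats, ID and HES repressors, and elongation factors). RNA polymerase subunits of up to 600 nt had a median of -2.90, with 8 of 12 lower, and the longer subunits 0.50, with 8 of 18 higher. Mediator, the coactivator that bridges transcription factors and RNA polymerase II, had 8 of 8 short subunits lower and 12 of 22 longer ones higher. The V-ATPase, which acidifies lysosomes, had 5 of 5 short subunits lower and 9 of 13 longer ones higher. In the anaphase-promoting complex, the ubiquitin ligase of mitotic exit, 5 of 6 short subunits were lower, down to -4.65 for CDC26. Of its 10 longer members 2 were higher, 0 lower and 8 not called (median 0.62). The highest was the activator CDC20 at 1.98.

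Single complexes were split between the fractions. COPS9 had 13539, 6563 and 14650 in monosomes and 311, 112 and 309 in heavy polysomes. COPS4, of the same signalosome, had 843, 1076 and 559 against 2075, 1875 and 2101, a difference of 1.34 that missed the threshold without replicate 1 (limma adjusted p = 0.0537) and without replicate 3 (0.0698). Of the 10 subunits 4 were higher, with 0 without replicate 1 and 1 without replicate 3, and 1, COPS9, was lower in every fit that left out libraries. Across the wider list of secretory entry machinery, which holds more than 1 complex, OST4 (111 coding nt) stood at -5.18 and SEC63 (2280 coding nt) at 2.50. SEM1, a proteasome lid subunit of 210 coding nt, stood at -2.70 with 9356, 5511 and 8453 against 1407, 711 and 1582. PSMD3, its partner in the lid, had 369, 625 and 218 in monosomes and 2902, 2768 and 2857 in heavy polysomes, a difference of 2.94 (SE 0.37). None of these monosome and heavy polysome ranges overlapped.

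Several lists of small proteins had low medians, though not every one: of 10 TCEAL and BEX proteins, with a median coding length of 367.5 nt, 2 were higher and 3 lower. Of 18 SMIM microproteins 17 were lower and 0 higher, with a median of -2.39. Of 20 Sm and LSM proteins, which form the cores of spliceosomal snRNPs and decapping rings, 15 were lower and 2 higher, with a median of -2.09. The exceptions were LSM14B and SNRPB. SNRPB, a core Sm protein of 693 coding nt, had 3648, 4392 and 1873 in monosomes and 27042, 16142 and 23606 in heavy polysomes, a difference of 2.81. Of 7 S100 and galectin proteins 5 were lower (median -2.29). Of 16 ubiquitin-like modifiers 11 were lower and 1 higher (median -1.45), with 6 lower when replicate 1 was left out and 3 lower and 3 higher on equal totals. NEDD8, the modifier that activates cullin ligases and shares exons with the readthrough gene NEDD8-MDP1, was at -3.14 with 243 coding nt. UBB, which encodes several ubiquitin repeats in 687 coding nt, was at 2.60. After subtracting from each gene the median of all genes in its length bin, the medians were -0.07 for SMIM, 0.16 for Sm and LSM, -0.26 for S100 and galectin proteins and -0.14 for ubiquitin-like modifiers, against 0.00 for all genes.

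**Figure D3:**
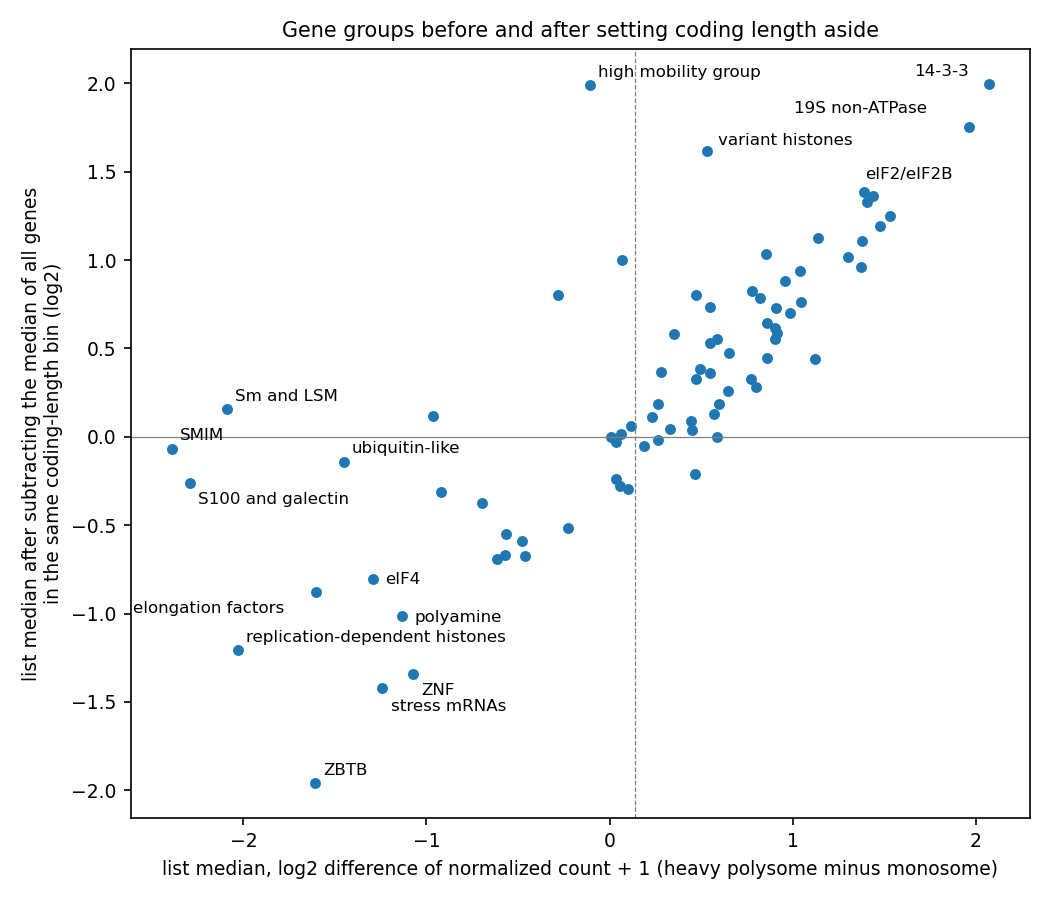
Each point is a gene group with at least 6 genes tested, by its median log2 difference (x axis) and its median after subtracting the median of all genes in the same coding-length bin (y axis). SMIM, Sm and LSM and ubiquitin-like groups move close to 0 on the y axis, ZBTB and ZNF groups stay at -1.96 and -1.34, and the high mobility group proteins move up to 1.99.

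The factors of protein synthesis did not go one way. Elongation factors, which bring tRNAs to the ribosome and move it along, were mostly lower. To show the starts of these mRNAs, the window from 10 bases before to 15 bases from the RefSeq start is printed for the 5 the account turns on, in lower case with any pyrimidine tract in capitals (a C followed by at least 4 C or T, beginning within 5 bases of the start, on the gene's strand, GRCh38.p14). EEF1A1 lies at chr6:73521018-73521042 on the minus strand and EEF2 at chr19:3985449-3985473 on the minus strand. EEF1B2 lies at chr2:206159599-206159623 on the plus strand, EIF5A at chr17:7306989-7307013 on the plus strand, and EIF5A2 at chr3:170908623-170908647 on the minus strand.
EEF1A1: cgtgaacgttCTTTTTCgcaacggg
EEF2: cgtcagcgttCTCTTCCgccgtcgt
EEF1B2: aagtggccccagcctcgaggccggg
EIF5A: tgggaacccgaccacactagcgcgc
EIF5A2: cccgtCTCTTggaactgccgcggcc
The EEF1A1 and EEF2 tracts begin at the RefSeq start itself. That of EIF5A2 spans the 5 bases before the start, and so lies outside the annotated mRNA. A tract by this rule was found at 22.7% of the 9893 tested genes with a RefSeq start window, at 26.2% of the lower ones and at 19.1% of the higher ones. These include ribosomal protein genes, of which 53 of 68 had it. With ribosomal protein and mitochondrially encoded genes left out, 28.5% of genes with the tract were lower and 24.4% higher. Of those without it 24.8% were lower and 29.7% higher.

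EEF1A1, which delivers aminoacyl-tRNA, had 568869, 849874 and 612536 in monosomes and 56518, 53932 and 64905 in heavy polysomes, a difference of -3.52 (SE 0.79, limma adjusted p = 0.00188). EEF2, the translocase, had 49748, 82868 and 44762 against 8921, 17663 and 15690, a difference of -2.07. EEF1B2, an exchange factor, stood at -2.59. Its window, drawn at a single RefSeq start, holds no such tract, and other starts were not examined. These 3 calls depended on the scaling or the replicates. Quantile normalization gave 0.044 for EEF1A1, -0.14 for EEF2 and -0.96 for EEF1B2, none past the threshold, and without replicate 1 the adjusted p was 0.106 for EEF1A1 and 0.146 for EEF2. The paralogs EIF5A and EIF5A2, of 462 and 459 coding nt, both encode the factor that helps ribosomes through stalls such as proline runs. EIF5A, which has the near-identical copy EIF5AL1 in the genome, had 5237, 5916 and 5729 in monosomes and 16636, 11212 and 15769 in heavy polysomes (1.35, SE 0.40). EIF5A2 had 287, 332 and 276 against 106, 65.5 and 128 (-1.61, SE 0.33). The difference between the 2 paralogs was not itself tested. That of EIF5A missed the threshold without monosome replicate 1 (limma adjusted p = 0.0591), without replicate 1 (0.188) and without replicate 3 (0.0763). EIF5A2 was at -0.34 and not called on equal totals (limma adjusted p = 0.409). Of 8 elongation factors tested 5 were lower and 1 higher. The 5 lower include EEF1E1 (-1.59), an elongation factor by its symbol only. Of the 8, 3 were lower without replicate 1 and 2 lower under quantile normalization. On equal totals 2 were lower and 2 higher.

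Initiation factors differed between complexes and within them. Of 8 subunits of eIF2 and its exchange factor eIF2B, which bring the initiator tRNA, 6 were higher and 0 lower (median 1.44). Without replicate 1, 4 were higher, and without replicate 2, 1 was lower. EIF2S3, a subunit of eIF2, stood at -0.97 and was not called. EIF2B3 had 244, 381 and 255 in monosomes and 1868, 1935 and 1469 in heavy polysomes, a difference of 2.60 (SE 0.31). Of 12 eIF4 cap-binding factors and their inhibitors 7 were lower and 3 higher (median -1.29), with 4 lower without replicate 1 and 3 lower and 5 higher on equal totals. EIF4B, a helicase cofactor encoded by a TOP mRNA, had 22927, 25452 and 29836 against 3927, 5431 and 4200, a difference of -2.53 (SE 0.41). EIF4H, which is related to it, had 1611, 1872 and 1343 against 7321, 5098 and 6233, a difference of 1.95. EIF4G2, a scaffold for cap-independent initiation, stood at 1.37, and missed the threshold without replicate 1 (limma adjusted p = 0.0984). Of 13 subunits of eIF3, the scaffold of the initiating small subunit, 4 were lower and 3 higher. The median of -0.61 became 0.67 on equal totals and 0.12 without replicate 2, so the group had no stable direction. EIF3L was at -2.63 and EIF3B at 2.52, with no overlap of the libraries in either gene. Of 20 cytosolic tRNA synthetases 10 were higher, with 5 without replicate 1, and 1 was lower (median 0.90). QARS1, the glutamine enzyme, was the lower one with 3236, 5053 and 3420 against 658, 1010 and 867 (-2.20), and WARS1, the tryptophan enzyme, had 655, 1407 and 544 against 4964, 5694 and 4864 (2.70).

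Ribosome assembly factors lay on the other side from the ribosomal proteins. Of 48 biogenesis factors 25 were higher and 2 lower, with a median of 0.99 and a length-adjusted median of 0.70. LTV1, which matures the small subunit, had 571, 322 and 169.5 in monosomes and 2690, 3410 and 3153 in heavy polysomes (3.28, SE 0.39). The lower 2 were NOP10 and NHP2, small subunits of the pseudouridine-forming snoRNPs. NOP10, with 192 coding nt, was at -4.13.

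Among the lists of protein folding and turnover, 14-3-3, proteasome, TRiC and endoplasmic reticulum chaperone genes had high medians. Others did not: 3 of 6 prefoldin subunits, which hand actin and tubulin to TRiC, were lower and 1 higher (median -0.97, or 0.32 on equal totals). Of 67 RNF ubiquitin ligases 27 were lower and 13 higher (33 higher and 9 lower on equal totals), and of 77 F-box and KLHL adaptors 24 were lower and 14 higher (45 higher and 5 lower on equal totals). Of the 6 proteins of the 14-3-3 family, adaptors that bind phosphorylated partners, 6 were higher and the family had the highest median, 2.07, of the groups with at least 6 genes. YWHAB had 3678, 2272 and 2705 in monosomes and 35540, 17141 and 20167 in heavy polysomes (3.03, SE 0.43). The smallest difference was that of YWHAH, 1179, 1099 and 1067 against 3055, 2370 and 2853 (1.30), which missed the threshold without replicate 1 (limma adjusted p = 0.0627). All 6 reading frames are 735 to 765 nt long, and the length-adjusted median was 2.00. Of 13 non-ATPase subunits of the 19S proteasome cap 12 were higher and 1, SEM1, was lower (median 1.96). Of 6 cap ATPases 5 were higher, with 2 to 6 in the fits that left out libraries, and of 14 subunits of the 20S core 9 were higher and 0 lower (median 1.40), with 3 without replicate 1. In replicate 2 the core median was 0.36, against 1.46 and 2.39 in the other replicates.

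TRiC, the chaperonin ring that folds actin and tubulin, had 6 of 8 subunits higher and 0 lower (median 1.53), with 2 higher without replicate 1. CCT7 had 1402, 2438 and 704 in monosomes and 2853, 9341 and 5362 in heavy polysomes (1.96, SE 0.49). Of its clients, 8 of 14 tubulins were higher and 1 lower, with 4 higher without replicate 1, and the tubulin median was 0.09 in replicate 2 against 1.45 and 2.05. Tubulin copies are near identical, so reads may be shared among them. Of 21 endoplasmic reticulum chaperones and disulfide isomerases 17 were higher and 0 lower (median 1.39), with 9 higher without replicate 1. PDIA6, a disulfide isomerase, had 1044, 1516 and 1101 against 9661, 9325 and 7185 (2.84, SE 0.34). Members of the HSP70, HSP90 and HSP110 families stayed near the background, with 3 of 11 higher, 0 lower and a median of 0.33.

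**Figure D4:**
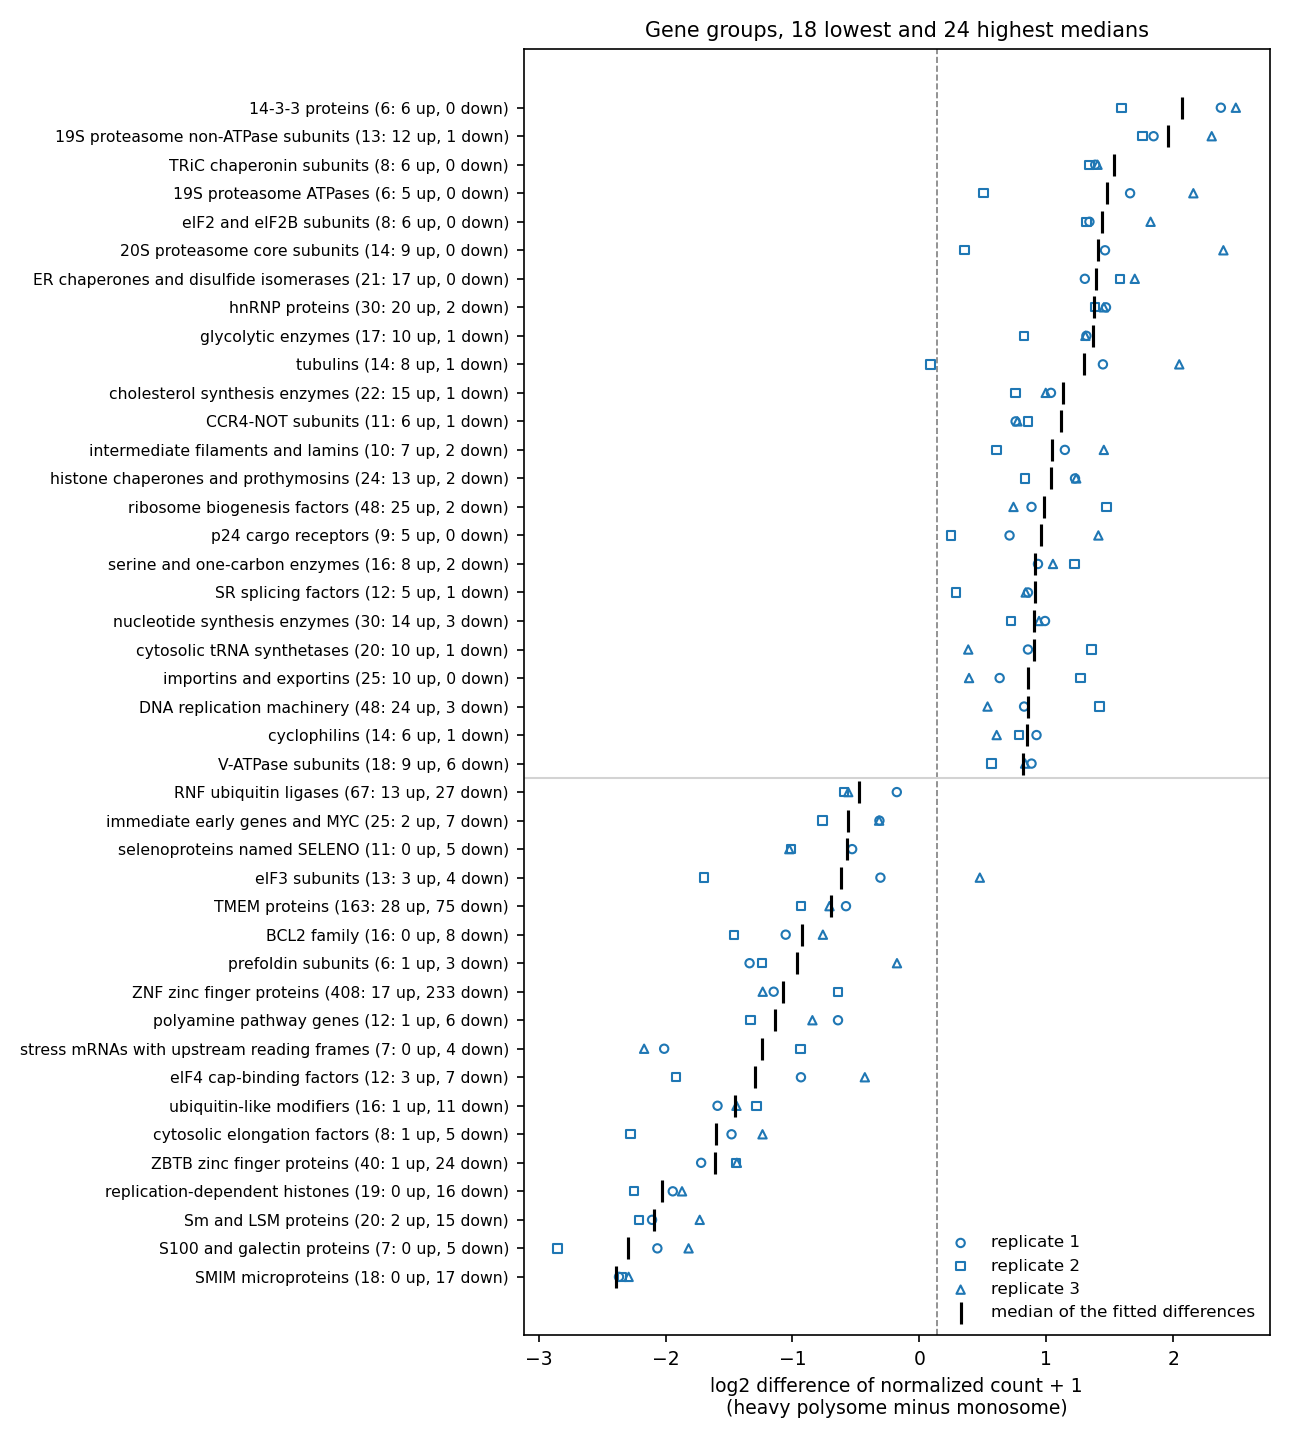
Median log2 difference of gene groups with at least 6 genes tested: the 18 lowest and 24 highest medians, with the numbers of genes tested and called up (higher) and down (lower) after each name. Open symbols are the medians in each replicate, black bars the medians of the fitted differences, and the dashed line the median of all genes, 0.14; replicate 2 stands off in the eIF3, tubulin and 20S groups.

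Chromatin proteins differed both between and within families. The high mobility group proteins, small abundant proteins that bend DNA or open nucleosomes, had a median of -0.11 over 10 members because they lay at both ends. HMGB1 had 3978, 2772 and 2540 in monosomes and 48455, 14192 and 24907 in heavy polysomes (3.08, SE 0.48). HMGB2 had 2305, 1050 and 909 against 20889, 12104 and 16536. HMGN3 had 12325, 4542 and 11128 against 836, 302 and 834 (-3.84, SE 0.47). The 3 members over 600 coding nt were all higher, and of the 7 shorter ones 3 were lower and 1 higher. Their length-adjusted median was 1.99. Variant histones were mixed as well, with 3 of 11 higher and 2 lower (median 0.53). Replication-dependent histones, made in S phase from mRNAs without a poly(A) tail, were lower in 16 of 19 and higher in 0 (median -2.03, length-adjusted -1.21). They were few in these libraries: 4 were lower among those with a mean of at least 100, and H4C8 had 64.7, 14.2 and 88.8 against 0.818, 0.903 and 1.72. The histone genes are near-identical copies, so each single value is uncertain. Histone chaperones and prothymosins were higher in 13 of 24 and lower in 2 (median 1.04), with 8 higher without replicate 1. ANP32A had 931, 782 and 560.3 in monosomes and 13857, 7231 and 8251 in heavy polysomes.

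Zinc finger transcription factors were the largest list with a low median on the deposited scaling, and they stayed low after subtraction of the length-bin median. The ZNF genes encode mostly arrays of DNA-binding fingers, many with a KRAB domain that recruits repressors. Of 408 ZNF genes 233 were lower and 17 higher, against 61 lower and 104 higher on equal totals. Their median was -1.07, or 0.19 on equal totals, against 0.14 and 1.41 for all genes. Their median coding length was 1731 nt, above the 1401 nt of all genes, and the length-adjusted median was -1.34. The medians in replicates 1, 2 and 3 were -1.15, -0.64 and -1.23, and without replicate 1 the lower calls fell to 148. The 190 on chromosome 19, where many KRAB genes are clustered, had a median of -1.21 with 122 lower and 2 higher. The 218 elsewhere had a median of -0.91 with 111 lower and 15 higher. By GC content of the coding sequence, the 157 with up to 42% GC had a median of -1.30 and the 74 over 60% GC a median of -0.16. All genes tested in these 2 GC classes had medians of 0.07 and -0.16. The ZNF genes over 60% GC thus had a median like that of their class, but fewer were higher, 4.05% against 19.7%. Of these ZNF genes 32.4% were lower, against 29.7% of the class. The length-adjusted medians were -0.44 and -0.27. The 9 ZNF genes over 4800 coding nt had a median of 0.53, with 4 higher and 0 lower. ZNF121 had 22789, 16101 and 28336 in monosomes and 647, 673 and 762 in heavy polysomes (-4.98, SE 0.36, limma adjusted p = 4.24e-07). At the other end ZNF622, which acts in ribosome assembly and not as a DNA-binding repressor, had 134, 199 and 153 against 414, 696 and 433 (1.64).

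ZBTB proteins, which join a BTB dimerization domain to zinc fingers, were lower still. Of 40 members 24 were lower and 1 higher, with a median of -1.61 and a length-adjusted median of -1.96, the lowest of the groups with at least 6 genes once ribosomal protein and mitochondrially encoded genes are left out. On equal totals 11 were higher and 11 lower, with a median of -0.33. ZBTB26 had 1889, 2483 and 1859 in monosomes and 79.4, 113 and 128 in heavy polysomes (-4.28, SE 0.31). The single higher member, ZBTB12, was near the filter with 32.3, 33.2 and 3.23 against 41.7, 55.6 and 70.6 (1.72, limma adjusted p = 0.0428). It missed the threshold with the replicate block (0.0607), with edgeR (0.0682) and in 5 of the 9 fits that left out libraries. The 14 ZBTB genes with a single coding exon had a median of -2.14 and the other 26 a median of -1.10.

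Of 80 HOX, SOX, FOX and PAX factors 25 were lower and 7 higher (median -0.46, or 0.79 on equal totals), with 14 lower and 1 higher without replicate 1, 16 lower and 4 higher without replicate 3, and 2 higher with the replicate block. On equal totals 37 were higher and 3 lower. HOXB2, a hindbrain patterning factor, had 705, 834 and 1439 against 62.2, 81.3 and 76.7 (-3.68). Chromatin remodellers and histone methylases, in contrast, were higher in 36 of 73 and lower in 6 (median 0.80). Their median coding length was 4008 nt and their length-adjusted median 0.28. Immediate early genes were lower in 7 of 25 and higher in 2 (median -0.56, or 0.71 on equal totals, where 1 was lower and 12 higher). EGR1, a growth-factor-induced regulator, had 1082, 111 and 405 and in heavy polysomes between 31.6 (replicate 2) and 57.3 (replicate 1), a difference of -2.998. The 2 higher were MYC, with 2814, 3137 and 2493 against 7546, 7630 and 5770 (1.31, missing the threshold without replicate 1 at adjusted p = 0.115), and ATF3.

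**Figure D5:**
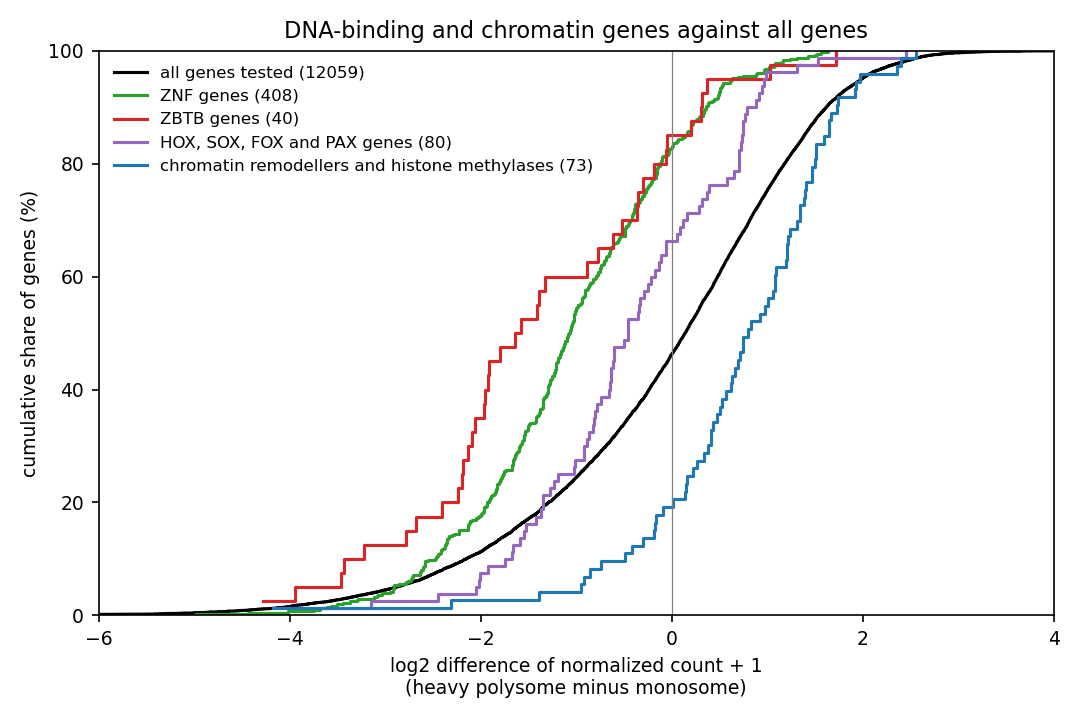
Cumulative share of genes (%) by log2 difference for all genes tested (black) and for ZNF, ZBTB, HOX/SOX/FOX/PAX and chromatin remodeller genes. The ZNF and ZBTB curves lie left of the curve of all genes, with medians of -1.07 and -1.61, and the remodeller curve lies right of it, with a median of 0.80; on equal totals the ZNF median is 0.19.

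The number of coding exons separated genes of equal coding length. Exons that hold only untranslated sequence were not counted. This feature was taken up after the values of the long low genes had been seen. With ribosomal protein and mitochondrially encoded genes left out, the 660 genes with 1 coding exon had a median of -0.93, and the 2388 with 17 or more a median of 0.59, on the deposited scaling. Among genes above 1200 and up to 2400 coding nt, 211 with a single coding exon had a median of -1.10 (54.5% lower, 5.21% higher). The other 4292 had a median of 0.32 (20.2% lower, 33.9% higher). Up to 600 nt the order was not seen. Genes above 300 and up to 600 nt had -0.73 with a single coding exon, against -1.02 for the rest. The 461 genes over 600 nt with a single coding exon and without a ZNF or ZBTB symbol had a median of -0.82. The values of that group were -0.83, -1.11 and -0.58 in replicates 1, 2 and 3.

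The genes with a single coding exon named here were chosen after their values were seen. SOCS4, a suppressor of cytokine signalling, had 7691, 3352 and 9367 in monosomes and 183, 164 and 190.4 in heavy polysomes (-5.12, SE 0.37). RANBP6, an importin-like protein, had 5945, 6108 and 5057 against 237, 136 and 209 (-4.90). P2RY1, a nucleotide receptor, had 3605, 2042 and 3265 against 121, 117 and 143 (-4.50). Against these stood ZCCHC12, a zinc knuckle coactivator, with 244, 111 and 179 against 1782, 1007 and 802 (2.73), and UBB.

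The hnRNP, DNA replication and nucleoporin lists had medians above that of all genes. Of 30 hnRNP proteins, which package nascent RNA, 20 were higher and 2 lower (median 1.38), with 10 higher without replicate 1. HNRNPAB had 2439, 1121 and 1071 in monosomes and 15920, 15922 and 13941 in heavy polysomes. HNRNPA1, whose mRNA has a TOP start, had 62545, 83778 and 46756 against 30026, 20503 and 32040. Its value of -1.21 was not called by limma (adjusted p = 0.079), while edgeR (-1.29, adjusted p = 0.0456) and DESeq2 (-1.31, adjusted p = 0.000424) called it lower. Equal totals gave 0.07 and quantile normalization 1.32, which was called. Its processed copies elsewhere in the genome may share reads. Of 48 DNA replication proteins 24 were higher and 3 lower (median 0.86), with 14 higher without replicate 1. PCNA had 2510, 1099 and 917 against 16390, 12547 and 12995, and FEN1, the flap endonuclease, was at 2.49. Of 30 nucleoporins 15 were higher and 0 lower (median 0.77), with 6 higher without replicate 1. RAE1, an mRNA export factor at the pore, had 386, 346 and 397 against 1785, 2540 and 1169 (2.21).

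Of 22 genes of cholesterol synthesis 15 were higher and 1 lower (median 1.14), with 6 higher without replicate 1 and 9 without replicate 3. Of 17 glycolytic enzymes 10 were higher and 1 lower (median 1.37), with 6 higher without replicate 1. PGK1 stood at 2.60 and PGAM1 at 3.07. GAPDH, often used as a reference, varied widely: 38296, 104069 and 16260 in monosomes against 26837, 17570 and 39590 in heavy polysomes. Its value of -0.60 was not called by limma (adjusted p = 0.469), was 0.68 on equal totals and 0.39 without replicate 2, and was 1.83 and called under quantile normalization. ACTB had 15432, 14267 and 10502 against 126622, 22379 and 59193 (2.06), and missed the threshold without heavy polysome replicate 1 (limma adjusted p = 0.0713), without replicate 1 (0.185) and without replicate 3 (0.0603).

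Stress-response mRNAs with inhibitory upstream reading frames were on the monosome side. Of 7 such mRNAs 4 were lower and 0 higher (median -1.24, or 0.04 on equal totals, length-adjusted -1.42), and 7 were lower when replicate 2 was left out. ATF4, the main transcription factor of the integrated stress response, had 37466, 30079 and 40151 in monosomes and 2251, 8635 and 5738 in heavy polysomes (-2.89, SE 0.52). DDIT3, its proapoptotic target, had 798, 3585 and 1744 against 36, 449 and 126 (-3.74, SE 0.69). PPP1R15B, a subunit of the eIF2 phosphatase, had 11042, 11327 and 9286 against 1260, 1782 and 1547 (-2.79). DDIT3 shares exon sequence with other annotated coding genes, MBD6 on the opposite strand among them, so its value is uncertain. It was highest in replicate 2 in both fractions, and so was ATF3, a stress-induced factor. ATF3 had 246, 1334 and 452 in monosomes and 1114, 6361 and 1837 in heavy polysomes. Its fraction ranges overlapped, while each replicate was higher in heavy polysomes, with a difference of 2.15 (SE 0.61). That call was lost with DESeq2 (adjusted p = 0.0527), without monosome replicate 1 (limma adjusted p = 0.0648) and without heavy polysome replicate 2 (0.0515).

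Genes of polyamine metabolism, several of which are controlled during translation, were lower in 6 of 12 and higher in 1 (median -1.14, or 0.15 on equal totals, where 3 were lower and 4 higher). SAT1, which acetylates polyamines for export, had 4233, 6041 and 9588 in monosomes and 263, 530.3 and 426 in heavy polysomes (lower, SE of the difference 0.38, limma adjusted p = 2.43e-06). SRM, spermidine synthase, stood at -2.39, and AMD1, which supplies the aminopropyl donor and carries a short upstream reading frame, at -1.44 (-0.16 and not called on equal totals). The higher member was AZIN1, the antizyme inhibitor, with 1020, 1140 and 1083 against 2047, 2416 and 1983 (0.99). It missed the threshold without monosome replicate 1 (limma adjusted p = 0.0554), without replicate 1 (0.133) and without replicate 3 (0.0736).

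Cell death and growth regulators, and structural proteins, lay on both sides. Of 16 BCL2 family genes 8 were lower and 0 higher (median -0.92, or 0.35 on equal totals, where 3 were lower and 3 higher). BCL2L11, which encodes the death-promoting protein BIM, had 2238, 1493 and 2622 in monosomes and 209, 212 and 252 in heavy polysomes (-3.20, SE 0.31). In the mTORC1 pathway, which couples nutrients to translation, 9 of 22 were lower and 4 higher (5 lower and 12 higher on equal totals), and 6 of 6 members of up to 600 coding nt were lower. RPS6KB2, an S6 kinase of 1446 coding nt, had 2137, 2305 and 2112 against 161, 137 and 233 (-3.65, SE 0.30). The keratin partners KRT8 and KRT18, which pair to form 1 filament, lay apart. KRT8 had 170.3, 237 and 213 in monosomes and 40.1, 94.4 and 46.5 in heavy polysomes (-1.85, SE 0.37). KRT18 had 140.2, 336 and 79.1 against 369.9, 486 and 569 (1.59, SE 0.43), a call lost without replicate 3 (limma adjusted p = 0.108). On equal totals KRT8 was at -0.58 and not called. The exons of the 2 genes overlap each other on opposite strands, and both have processed copies in the genome, so reads may be shared.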

How the data were processed

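The submitters' processing notes name featureCounts and GRCh38; aligner, counting options and strand are not stated. In the authors' deposited table the signal of each library proved, from its values, to be whole reads times a constant: scaling by that constant returned whole numbers for 100% of values (tolerance 0.01 reads). The authors' deposited log2 ratio of fraction means correlated with the fitted difference at r = 0.998 across 12059 genes.

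The design assumed normalized values, so limma 3.58.1 (R 4.3.3, trend) was fitted to log2(value + 1) of 6 libraries, with fraction as the only term, two-sided, and Benjamini-Hochberg adjustment at 0.05. This scale understates the change of low genes. edgeR 4.0.16 and DESeq2 1.42.0 on recovered counts were alternatives, and 3189 and 3382 genes were higher and lower with edgeR. The script was tested on simulated data with few changed genes, as many up as down, and no outlying library. The libraries here are unlike that, so the test does not vouch for these calls. Depth was 13447139 to 24441159 reads. The labels give replicates a batch number, so same-numbered libraries are pairs, and their deviations from the fraction means correlated at 0.14, -0.14 and -0.53 in replicates 1, 2 and 3. Pairs of replicate libraries differed by far more than counting noise.

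Coding lengths, exons and overlaps came from GENCODE release 29 (GRCh38) and start windows from RefSeq (GRCh38.p14). Genes named were the 12 highest and 12 lowest past the threshold with 1 direction in all replicates and a mean above the median of genes tested, ribosomal protein and mitochondrially encoded genes left out, and then the 2 highest and 2 lowest of each list, every member of lists of at most 14, GAPDH and ACTB. Not every gene selected is printed. The genes compared, the lists and the rule were chosen with earlier results of these data known. List counts and medians are descriptions with no test.

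Other genes named here whose exons overlap an annotated gene, counted with strand use unstated, are AZIN1, BCL2L11, CDC26, EEF1A1, EEF1B2, EEF2, EIF2B3, EIF3L, EIF4B, EIF4G2, EIF5A, FEN1, GAPDH, HMGN3, HOXB2, LTV1, NHP2, PDIA6, PGK1, QARS1, RPS6KB2, SEC63, SNRPB, UBB, WARS1, YWHAH and ZBTB12; their values are uncertain to that extent.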

Additional observations from a re-analysis of the deposited data

How the results depend on the processing

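Scaling each library to the same total gave 7598 higher and 1170 lower genes, against 3391 and 3151. Leaving out libraries gave 1896 to 3728 higher and 2251 to 3479 lower genes, with the fewest without both libraries of replicate 1. The other alternatives (pseudocounts of 10 and 0.5, no filter, a mean of at least 100, 9 libraries, quantile normalization, edgeR and DESeq2) stayed within 1.5 times of both counts. With the replicate block, 2950 genes were higher and 2883 lower, and 5803 of 6542 calls kept their direction and the threshold; among genes named here the block ended the call of ZBTB12 and no other.

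Quantile normalization reversed EEF1A1 (0.044), HNRNPA1 (1.32) and GAPDH (1.83), and the cause was not tested. On equal totals 14 of 81 list medians changed sign. Relative to the median of all genes 0 of 81 did so. That scaling multiplies each library by a constant and moves nearly all genes alike, so this count could hardly differ from 0. Leaving out both libraries of replicate 1, 2 or 3 changed the relative sign of 7, 6 and 6 of the 81 medians. Without replicate 2, 6040 of 6542 calls kept their direction and 0 reversed. Lists of fewer than 10 genes, genes near the mean of 20, and gene families with near-identical copies are the least certain. The ERCC spike-ins that the labels describe were not used here, so amounts of RNA per fraction were not estimated.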
